A study of Homo sapiens with 12 samples.

Results

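The experiment described here compared SLFN11-knockout CCRF-CEM cells that were labelled as treated with prexasertib with the same knockout cells labelled as given DMSO, the solvent. CCRF-CEM is an established human T lymphoblast line derived from acute leukemia, and prexasertib is an inhibitor of the checkpoint kinase CHK1. The members are the 6 knockout libraries among the 12 libraries of the series: 3 whose records give 100 nM prexasertib for 6 h and 3 whose records give DMSO. The other 6 libraries are the same 2 treatments of wild-type CCRF-CEM, called parent cells here, and enter the fit and the comparisons between genotypes. Cells of both genotypes grew in RPMI1640 with 10% FBS, and total RNA was sequenced in a single pooled paired-end run. The labels do not say whether the knockout line is a single clone or whether the libraries of a group are separate cultures, so p-values measure only the spread between these libraries, which may be technical.

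The treatment of every library is stated in conflicting ways. In 6 of the 6 knockout records, and in 12 of 12 in all, the library name carried by the deposited table gives the opposite treatment to the record that holds it. The library name in each record's title gives the same treatment as its label. In 12 of 12 records the table of that name is held by the record of the other treatment with the same genotype and replicate number. Titles and tables therefore use the same library names and differ in which record holds each table. Groups here follow the records, and a change is the value in libraries labelled prexasertib relative to libraries labelled DMSO. If the library names of the tables are right, every change keeps its size and takes the opposite sign. The log2 fold change of PLK1 is -1.65 by the records and 1.65 by these library names. That of VEGFA is 0.99 by the records and -0.99 by the names. Size, error and adjusted p are the same under either reading. The files cannot settle which reading is right, and "labelled" is written throughout for that reason.

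CHK1 is activated by ATR when replication forks stall. It phosphorylates CDC25 phosphatases, which holds back cyclin-dependent kinases, limits origin firing and keeps cells with unfinished replication out of mitosis. SLFN11 is a nuclear factor that blocks stressed replication forks and sensitises cells to DNA-damaging drugs. It has been tied to the opening of chromatin and the activation of immediate early genes under replication stress, which is the subject the series names.

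Exon reads per knockout library ran from 52881429 to 77548202, and 24.95% to 25.96% of each library's reads fell in introns. The intron share was 25.5% ± 0.459 (SD, n = 3) in libraries labelled DMSO and 25.8% ± 0.289 (SD, n = 3) in those labelled prexasertib, an exact two-sided permutation p of 0.5, where 0.1 is the smallest p that 3 against 3 allows. Parent libraries labelled DMSO ranged from 23.93% to 25.56% and those labelled prexasertib from 25.93% to 30.27%, the last in replicate 1. Intron changes and intron interactions of parent cells use that library and were not refitted without it. SLFN11 transcripts were present in all 6 knockout libraries. They stood at 65.9, 66.6 and 69.1 CPM of exon reads (reads of a gene per 1000000 exon reads of the library, after scaling) in those labelled DMSO and 85.0, 90.7 and 89.4 CPM in those labelled prexasertib, below the 91.2 to 100 CPM and 117 to 119 CPM of the matching parent libraries. The RNA level does not check the knockout, since gene tables do not show where the gene was edited. All 33 genes of a T-lineage list were at 1 CPM or more on average in both groups. Marker lists of other cell types were low: the summed level was 2.56 to 3.72 CPM for 7 myeloid markers, 0.461 to 0.713 CPM for 6 erythroid and platelet markers, 9.94 to 11.3 CPM for 6 epithelial and fibroblast markers (nearly all EPCAM) and 40.7 to 43.7 CPM for 7 B-cell markers (nearly all CD79A and CD79B). The ranges of the 2 groups overlapped for each of these sums, while the T-lineage sum was 4859 to 4925 CPM in libraries labelled DMSO and 5095 to 5157 CPM in those labelled prexasertib; the part of this difference in the results was not tested. COL1A1, a collagen gene of the fibroblast markers, was the only marker called outside the T-lineage list, at 0.946 and 0.445 CPM. In bulk RNA, fewer cells of a type and less RNA per cell cannot be told apart.

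Of 23045 genes tested in exon reads with edgeR, 1407 were higher (6.11%) and 1575 were lower (6.83%) in libraries labelled prexasertib at an adjusted p of at most 0.05. These shares are the background for each list count of knockout exon reads below. Most differences were small. The median size among called genes was 0.32 on the log2 scale, while 42 called genes (0.182%) were at least 2-fold higher and 172 (0.746%) at least 2-fold lower. The median over all genes tested was 0.00. The 12 largest decreases among genes above the level minimum included PIF1, PLK1, PSRC1 and CDC20 of mitosis and chromosome maintenance and RND1, GEM, FOS, PPP1R15A and NR4A3 of the early response, and the 12 largest increases included ADM, BHLHE40 and VEGFA.

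Genes of mitosis were lower in libraries labelled prexasertib. Genes needed in G2 and mitosis are switched on together late in the cell cycle, in part through a promoter element named the cell cycle homology region, which is bound by the DREAM and MuvB complexes with B-MYB and FOXM1, and through nearby CCAAT boxes. Of 85 genes in 3 mitotic lists, 67 were lower and 0 higher, against the 6.83% and 6.11% of all genes, and the median was -0.62 against 0.00 over all genes. The promoters of PLK1, the kinase that drives mitotic entry, and CDC20, the activator of the anaphase-promoting complex, are shown because both genes were among the 12 that fell most and both windows hold the element. Each window runs from 250 bases before the annotated start to 50 bases after it, from RefSeq on GRCh38.p14, and capitals mark TTTGAA or TTCGAA on either strand.
PLK1, chr16:23678639-23678938, plus strand: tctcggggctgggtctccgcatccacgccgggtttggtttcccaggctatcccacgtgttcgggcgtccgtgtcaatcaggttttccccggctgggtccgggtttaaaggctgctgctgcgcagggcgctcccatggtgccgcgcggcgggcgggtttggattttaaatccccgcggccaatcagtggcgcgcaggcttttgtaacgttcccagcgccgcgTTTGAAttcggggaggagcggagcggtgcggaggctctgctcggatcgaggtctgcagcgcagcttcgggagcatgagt
CDC20, chr1:43358731-43359030, plus strand: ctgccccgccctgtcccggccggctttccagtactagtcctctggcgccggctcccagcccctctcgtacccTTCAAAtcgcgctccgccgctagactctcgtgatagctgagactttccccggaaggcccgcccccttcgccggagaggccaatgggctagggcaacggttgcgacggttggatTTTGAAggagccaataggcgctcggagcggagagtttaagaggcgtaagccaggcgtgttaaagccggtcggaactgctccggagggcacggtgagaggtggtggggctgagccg
In PLK1 the match begins 29 bases before the start, and in CDC20 the matches begin 178 and 65 bases before it. RefSeq windows were matched for 73 of the 85 genes, and 59 of their 93 windows (63.4%) held TTTGAA or TTCGAA, against 16.4% of all 35116 windows. Among windows of genes tested in exons the share was 12.4%. For other lists it was 48.0% for condensin, cohesin and topoisomerase II, 37.7% for replication-dependent histones and 7.4% for the DNA replication machinery. CCAAT stood in 64.5% of the mitotic windows and 34.6% of all windows. It was not particular to the mitotic lists: the share was 88.7% for replication-dependent histones and 85.2% for endoplasmic reticulum chaperones. For the DNA replication machinery, where no gene was lower, it was 53.7%. Other lists had less, such as 28.6% for interferon-stimulated genes. These matches are a description of the letters, not of binding.

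PLK1 (hg19 chr16:23688977-23701688) stood at 246, 254 and 252 CPM in libraries labelled DMSO and at 81.0, 84.6 and 74.8 CPM in those labelled prexasertib. The groups were far apart, a 3.13-fold decrease (log2 fold change -1.65, SE 0.05, adjusted p = 4.05e-17). CDC20 fell from 479 ± 7.20 to 165 ± 6.08 CPM (SD, n = 3 each; log2 fold change -1.53, adjusted p = 1.77e-16). PIF1, a DNA helicase whose transcript peaks in G2 and mitosis, fell most of all the cell cycle genes named here, from 83.4, 82.2 and 84.6 to 17.1, 16.1 and 14.6 CPM, a 5.24-fold decrease with no overlap.

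**Figure D1:**
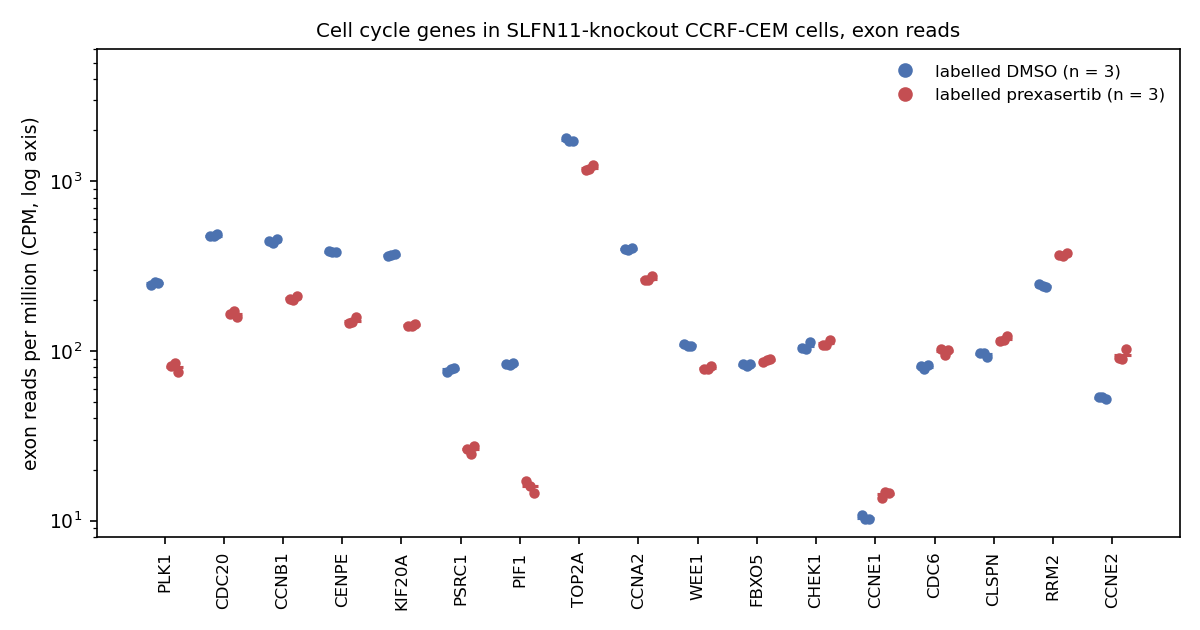
Exon CPM on a log axis for 17 cell cycle genes in the 6 knockout libraries; points are libraries and bars are group means. PLK1, CDC20 and PIF1 lie well below their DMSO-labelled values in all 3 prexasertib-labelled libraries, FBXO5 and CHEK1 lie close together, and RRM2 and CCNE2 lie above.

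Among the kinases and cyclins of mitotic entry, 19 of 26 genes were lower and 0 higher, with a median of -0.62. AURKA, which activates PLK1, fell by 1.36 on the log2 scale, CCNB1, the mitotic cyclin, fell by 1.12, and CDC25B, the phosphatase that starts CDK1 activation, fell by 0.67. CCNA2 fell by 0.58 and CDK1 itself fell by 0.44, so the kinase subunit moved less than its mitotic cyclin. FOXM1, the transcription factor of this programme, fell by 0.24, and this call was lost when the authors' TPM values were tested with limma. The 7 members that were not called, LIN9, LIN37, LIN52, LIN54, MASTL, MELK and MYBL2, are largely subunits of the MuvB complex and its B-MYB partner.

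Of 28 genes of the kinetochore and spindle checkpoint, 18 were lower and 0 higher, with a median of -0.44. CENPE, a kinetochore motor, fell from 389, 381 and 380 to 146, 148 and 158 CPM, and CDCA8, a subunit of the chromosomal passenger complex, fell from 224, 231 and 225 to 91.8, 90.1 and 87.2 CPM. BUB1, a checkpoint kinase, fell by 0.71 on the log2 scale. The spindle motor and cytokinesis list was the most uniform of the lists examined: 30 of 31 genes were lower, with a median of -0.77, and the single exception was KIF15 (log2 fold change -0.10, adjusted p = 0.227). KIF20A, a motor of cytokinesis, fell from 364, 368 and 372 to 141, 141 and 145 CPM, and PSRC1, a spindle protein, fell by 1.56 on the log2 scale. Under the library names these same genes are higher with prexasertib by the same amounts.

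The anaphase-promoting complex list was mixed, with 8 of 18 genes lower, 0 higher and a median of -0.09. CDC20 and the ubiquitin-conjugating partners UBE2S and UBE2C, whose log2 fold changes were -1.14 and -1.03, led the decrease, while FBXO5, an inhibitor of the complex that is made in S phase, had a log2 fold change of 0.09 (adjusted p = 0.28). In the list of condensin, cohesin and topoisomerase II, 6 of 20 genes were lower and 4 were higher. TOP2A, which untangles chromosomes, fell from 1756 ± 34.6 to 1197 ± 42.2 CPM, and the condensin subunit NCAPG fell by 0.53 on the log2 scale.

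Intron reads, which come mostly from RNA that has not yet been spliced, showed the mitotic decrease as well. Of 19852 genes tested in introns, 1157 were higher (5.83%) and 1220 lower (6.15%), and 60 of the 85 mitotic genes were lower and 3, SKA3, KNTC1 and MYBL2, were higher. PLK1 fell by 1.98 in intron reads against 1.65 in exon reads, CDK1 fell by 0.91 against 0.44, and UBE2C fell by 1.79 against 1.03. A model of exon against intron reads within each library tested whether the 2 kinds differed: of 16195 genes, 1161 had exon changes above their intron changes (7.17%) and 804 below (4.96%). The difference was 0.48 for CDK1 (adjusted p = 1.8e-07) and 0.78 for UBE2C (adjusted p = 1.09e-07), and over the 85 mitotic genes 19 were above and 22 below.

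Some genes of DNA replication were higher, by smaller amounts. Their factors copy DNA, and most are switched on by E2F at the entry to S phase. Of 44 genes of the replication machinery, 16 were higher, 0 lower and 28 not called, with a median of 0.11; without DMSO-labelled replicate 2 or replicate 3 the count was 10. RRM2, a subunit of the enzyme that makes deoxyribonucleotides, rose from 247, 240 and 239 to 368, 362 and 380 CPM (log2 fold change 0.61, adjusted p = 2.0e-10). CDC6, which loads the replicative helicase, rose by 0.30 on the log2 scale, and POLD3, a subunit of DNA polymerase delta, rose by 0.37. Under the library names RRM2, CDC6 and POLD3 are lower with prexasertib, RRM2 at -0.61.

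Of 28 E2F and G1/S regulators, 10 were higher, 3, DBF4, CDKN2C and CDKN2D, were lower and 15 were not called. CCNE2, a cyclin that drives S phase entry, rose from 53.3, 53.6 and 52.3 to 91.1, 89.1 and 102 CPM, the largest called increase on the list (log2 fold change 0.83, SE 0.06). CCNE1 rose by 0.46, the E2F repressor E2F7 by 0.46 and CDC25A, a CHK1 substrate whose protein is destroyed when CHK1 is active, by 0.31. E2F1 had a log2 fold change of 0.15 (adjusted p = 0.11). DBF4, the activating subunit of the CDC7 kinase, fell by 0.58.

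CHEK1, the gene of the drug's target, stood at 104, 103 and 113 CPM in libraries labelled DMSO and 109, 108 and 115 CPM in those labelled prexasertib, so the groups overlapped (log2 fold change 0.06, SE 0.05, adjusted p = 0.57). Within the replication checkpoint list of 22 genes, 3 were higher (CLSPN, TOPBP1 and RAD1) and 3 lower (WEE1, H2AFX and MDC1). The shares of all genes were 6.11% higher and 6.83% lower. CLSPN, the adaptor through which ATR activates CHK1, rose by 0.30. WEE1, the kinase that restrains CDK1, fell by 0.44. Of 34 genes of homologous recombination and the Fanconi anemia pathway, 9 were higher and 2, SLX4 and MUS81, were lower. Of 23 p53 targets, 7 were lower and 1, AEN, was higher. Beside the same shares of all genes, the 2 lower and the 1 higher were near the background. CDKN1A, a cell cycle inhibitor induced by p53, had exon levels of 6.79 ± 0.144 and 6.55 ± 0.174 CPM, a log2 fold change of -0.05 (adjusted p = 0.79), whereas its intron reads fell by 0.92. MDM2 had a log2 fold change of 0.00.

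**Figure D2:**
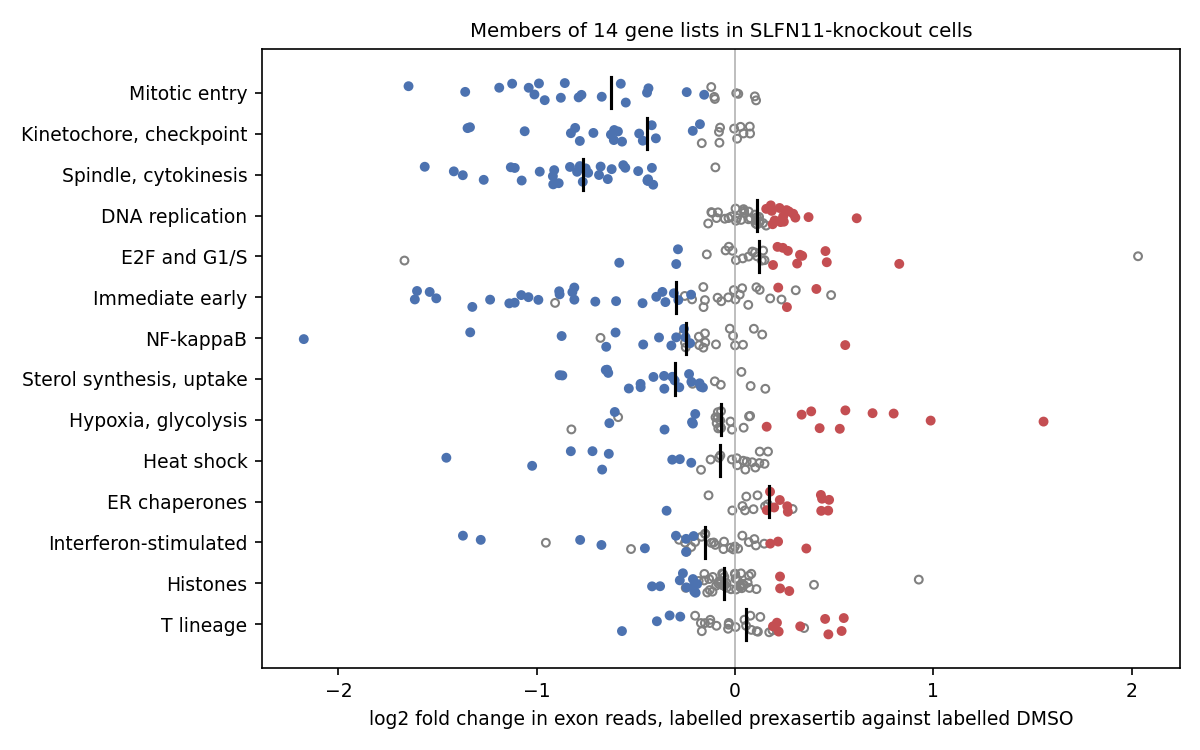
Log2 fold change in exon reads of each tested member of 14 gene lists, labelled prexasertib against labelled DMSO; filled points passed an adjusted p of 0.05, open points did not, and black ticks are list medians. The 3 mitotic lists sit at medians from -0.77 to -0.44, and DNA replication sits at 0.11.

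Immediate early genes, which encode transcription factors and feedback regulators switched on within minutes of a stimulus, were mostly lower. Of 48 tested, 25 were lower and 3, DUSP6, MYC and KLF10, were higher, with a median of -0.30 against 0.00 over all genes. The 3 higher were near the 6.11% of all genes, and 6.83% of all genes were lower. FOS (hg19 chr14:75745477-75748933) stood at 8.14, 7.79 and 7.502 CPM in libraries labelled DMSO and 2.59, 2.49 and 2.58 CPM in those labelled prexasertib, a 3.06-fold decrease. Its levels were low in both groups, but they did not overlap. PPP1R15A, a stress-induced phosphatase subunit, fell from 48.5, 51.1 and 47.2 to 16.1, 17.5 and 14.7 CPM, and JUN, the partner of FOS, fell by 0.81 on the log2 scale. DUSP1, which switches off MAP kinases, fell by 1.04, IER5 by 0.81 and NR4A3, a nuclear receptor, by 1.54. ATF3 fell by 0.40. EGR1 fell by 0.60 from 2.45 ± 0.178 CPM, and its call was lost when any of DMSO-labelled replicates 2 and 3 or prexasertib-labelled replicates 1 and 3 was left out (adjusted p from 0.0527 to 0.102). MYC rose by 0.26 in exon reads and by 0.82 in intron reads. Outside the list, RND1 and GEM, small GTPases induced by signals, fell by 2.52 and 1.94 on the log2 scale, each from under 3 CPM.

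Parent cells had larger decreases in most of these genes. Their comparison carries the same label conflict and used its own 6 libraries. In parent cells 40 of the 48 immediate early genes were lower, with a median of -1.50, beside a background of 18.2% of all genes lower. The difference between genotypes was tested as an interaction, the parent change minus the knockout change. It was -2.36 for JUN (adjusted p = 2.2e-16), -2.99 for ATF3 and -1.35 for FOS, so all 3 fell less in the knockout cells. For PPP1R15A the interaction was 0.31 (adjusted p = 0.022), and for RND1 it was -0.46 and did not pass (adjusted p = 0.43). Of the 85 mitotic genes, 57 had an interaction below 0 and 0 above, with a median of -0.37, against 9.53% and 7.32% of all genes. AURKA had -0.95 (adjusted p = 1.33e-09), CENPE -0.61, UBE2C -0.49 and KIF20A -0.43, all of which passed, so these genes also fell less in the knockout cells. PLK1, CDC20 and CCNB1 had -0.08, -0.19 and -0.01, none of which passed (adjusted p = 0.54, 0.097 and 0.95). Under the library names, each gene named here is higher with prexasertib in both genotypes, and FOS, JUN and ATF3 rise less in the knockout cells.

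NF-kappaB genes, many of which are induced by the same signals, showed 12 of 29 lower and 1, TRAF3, higher, with a median of -0.25. NFKB2, the precursor of the p52 subunit, fell from 16.7, 15.7 and 16.5 to 9.34, 9.77 and 7.56 CPM. NFKBIA, the inhibitor that the pathway induces, fell from 52.8 ± 0.585 to 33.7 ± 0.492 CPM, and TNFAIP3, another feedback inhibitor, fell by 0.38 on the log2 scale. BCL3 and RELB, chosen after their values were seen, fell further, by 2.17 and 1.34, at levels under 1 and 5 CPM. TRAF3, which restrains the noncanonical branch, rose by 0.56 in exon reads and had an intron change of 0.03, a difference of 0.54 (adjusted p = 5.8e-06).

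Sterol genes fell together. The proteins of this pathway make cholesterol or take it up, and their genes are switched on by the SREBP2 factor when sterols are scarce, while LXR receptors switch on exporters when sterols are plentiful. Of 25 genes of synthesis and uptake, 19 were lower and 0 higher, with a median of -0.30. In intron reads 9 of the 25 were lower and 0 higher, against 6.15% and 5.83% of all genes. The intron median was -0.19, with 23 members below 0. HMGCS1 (hg19 chr5:43289497-43313614), which makes HMG-CoA for the mevalonate pathway, stood at 302, 292 and 288 CPM in libraries labelled DMSO and 189, 182 and 193 CPM in those labelled prexasertib. It fell by 0.65 on the log2 scale without overlap (SE 0.05, adjusted p = 1.6e-10), and its intron reads fell by 0.59. SQLE, which oxidises squalene on the way to sterols, fell from 115, 106 and 110 to 88.3, 93.2 and 90.4 CPM, a smaller decrease of 0.28 on the log2 scale. Its intron change of -0.15 was not called (adjusted p = 0.289). SREBF2, which encodes SREBP2, had a log2 fold change of -0.10 (adjusted p = 0.46), and INSIG1, a sterol-sensitive brake on the pathway, had one of 0.08 (adjusted p = 0.3).

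The sterol exporters ABCA1 and ABCG1 were higher. ABCA1 rose from 1.53, 1.48 and 1.40 to 2.41, 2.99 and 2.82 CPM, and ABCG1 rose from 5.12 ± 0.207 to 7.80 ± 0.687 CPM; they were the 2 genes called among 9 of the export list, whose median was -0.17 with 6 members below 0. Of 14 genes of fatty acid synthesis, 4 were lower and 0 higher: SREBF1 fell by 0.49, and ACSS2, FADS1 and the desaturase FADS2 were also lower, the last by 0.36 in exon reads with an intron change of 0.11. Over the 25 genes of synthesis and uptake, the parent comparison had 16 lower and 7 higher, against 18.2% of all genes in each direction. The exon interaction was above 0 for 7 and below for 5, against 7.32% and 9.53% of all genes. INSIG1 and SREBF2 had interactions of 0.27 and 0.35, which passed (adjusted p = 0.0037 and 0.032). HMGCS1 and SQLE had exon interactions with genotype of -0.10 and 0.10, which did not pass (adjusted p = 0.35 and 0.38). In intron reads HMGCS1 fell by 0.59 in the knockout and by 0.27 in the parent, with an interaction of 0.32 that passed (adjusted p = 0.0234). FADS2 differed between genotypes (interaction 0.62, adjusted p = 1.9e-06): its parent change was 0.26. With the library names, the 19 genes called in synthesis and uptake are higher in the knockout cells with prexasertib, and ABCA1 and ABCG1 are lower.

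**Figure D3:**
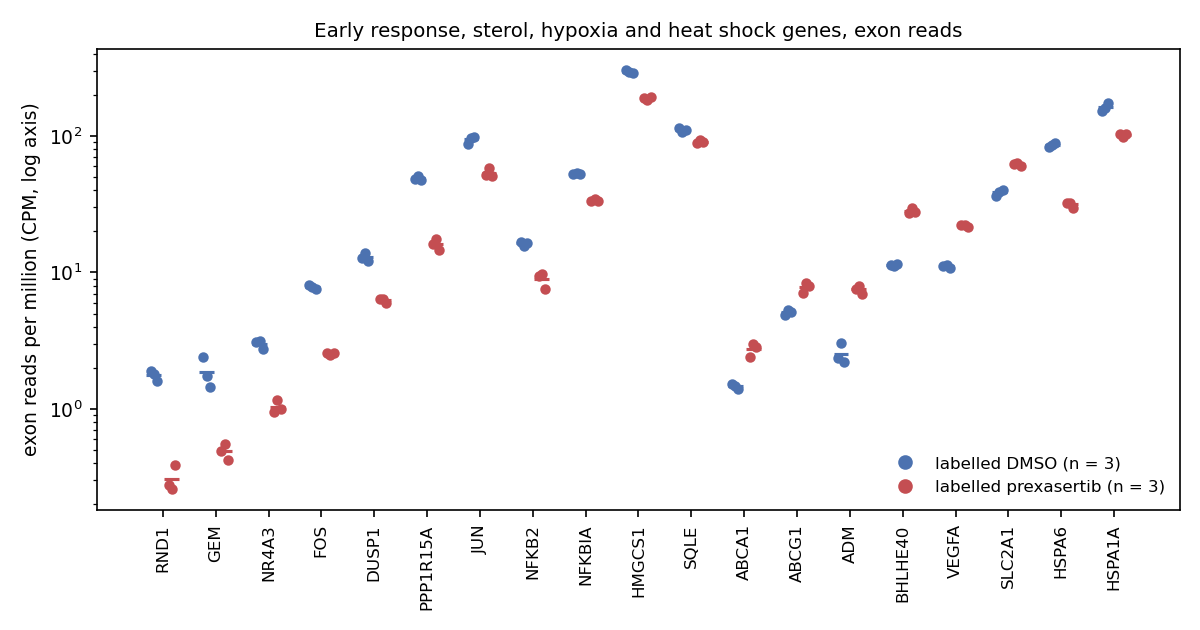
Exon CPM on a log axis for 19 early response, sterol, hypoxia and heat shock genes in the 6 knockout libraries; points are libraries and bars are group means. The groups do not overlap for any gene shown: ABCA1, ABCG1, ADM, BHLHE40, VEGFA and SLC2A1 are higher in libraries labelled prexasertib and the other genes are lower.

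Hypoxia-inducible genes carry sites for HIF, the factor that accumulates when oxygen is low, and include growth factors, glucose transporters and glycolytic enzymes. In exon reads 10 of 33 were higher and 6 were lower, with a median of -0.07. The signalling and transport genes led the increase. ADM, which encodes the peptide adrenomedullin, rose from 2.37, 3.05 and 2.23 to 7.56, 7.95 and 6.99 CPM, a 2.94-fold increase. VEGFA, the angiogenic growth factor, rose from 11.19, 11.3 and 10.8 to 22.3, 22.1 and 21.5 CPM. The glucose transporters SLC2A1 and SLC2A3 rose by 0.69 and 0.53 on the log2 scale. BHLHE40, a repressor induced by hypoxia and kept on the circadian clock list here, rose from 11.4 ± 0.205 to 28.1 ± 1.26 CPM, the steepest increase after ADM among the protein-coding genes named.

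Several glycolytic enzymes of the same list were nearly level in exon reads but higher in intron reads. In introns 17 of 32 hypoxia genes were higher and 0 lower, against the backgrounds of 5.83% and 6.15%, with a median of 0.41 against 0.01 over all genes. Of the 17, 5 were also higher in exons, 4 were lower in exons and 8 were not called there. Exon changes were below intron changes for 17 of the 32 and above for 3, against 4.96% and 7.17% of all genes. The 3 above were near that background. ENO1, enolase, had exon levels of 3580 ± 59.8 and 3344 ± 80.2 CPM, a log2 fold change of -0.10 (adjusted p = 0.35). Its intron level rose from 142, 141 and 145 to 248, 257 and 259 CPM.

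BNIP3 (hg19 chr10:133781578-133795435), a mitochondrial protein of autophagy, moved in opposite directions in the 2 kinds of read. Its exon level fell from 21.6, 22.8 and 22.2 to 14.8, 14.6 and 14.3 CPM, and its intron level rose from 27.5, 28.2 and 28.8 to 55.4, 60.4 and 64.7 CPM. Neither pair of groups overlapped. The exon change of -0.61 lay 1.68 below the intron change of 1.09 on the log2 scale (adjusted p = 1.25e-10). When all reads of the gene were counted together, intron reads included, BNIP3 was higher, with a log2 fold change of 0.10, and GBE1 was 0.08 in place of an exon value of -0.23. The BNIP3 promoter is shown because its gene combines higher intron reads with a cluster of the letters of the HIF site; capitals mark ACGTG or GCGTG on either strand, which overlap where ACGTG meets its own reverse complement, and the window is RefSeq's on GRCh38.p14.
BNIP3, chr10:131981874-131982173, minus strand: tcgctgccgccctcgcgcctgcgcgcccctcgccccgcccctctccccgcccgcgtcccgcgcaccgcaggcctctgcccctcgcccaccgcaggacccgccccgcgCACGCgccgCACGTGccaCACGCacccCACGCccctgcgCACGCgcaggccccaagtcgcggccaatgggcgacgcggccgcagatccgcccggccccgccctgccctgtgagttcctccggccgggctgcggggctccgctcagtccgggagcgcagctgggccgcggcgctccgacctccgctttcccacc
The window holds 6 matches, which begin from 143 to 104 bases before the start. These short letters are common: they stood in 72.9% of the 48 windows matched to the list (29 of 33 genes) and in 48.4% of all windows. Among windows of genes tested in exons the share was 58.9%. The letters were not particular to this list: the share was 73.0% for homologous recombination and 92.6% for endoplasmic reticulum chaperones. Other lists had less, such as 31.4% for interferon-stimulated genes.

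Other genes also had exon changes below 0 and intron changes above 0. GPI, an enzyme of glycolysis, had an exon change of -0.15 and an intron change of 0.78; its exon call was lost when any single knockout library was left out (adjusted p from 0.056 to 0.179). GBE1, the glycogen branching enzyme, fell by 0.23 in exons and rose by 0.72 in introns. IGFBP2, a binding protein of insulin-like growth factors, had exon levels that overlapped (276 ± 7.30 and 269 ± 14.1 CPM) while its intron level rose from 28.7, 31.6 and 28.2 to 65.6, 62.7 and 61.5 CPM. PGK1, phosphoglycerate kinase, had an exon change of -0.08 and an intron change of 0.55. With the library names, these genes have lower intron reads with prexasertib and BNIP3 has more exon reads.

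**Figure D4:**
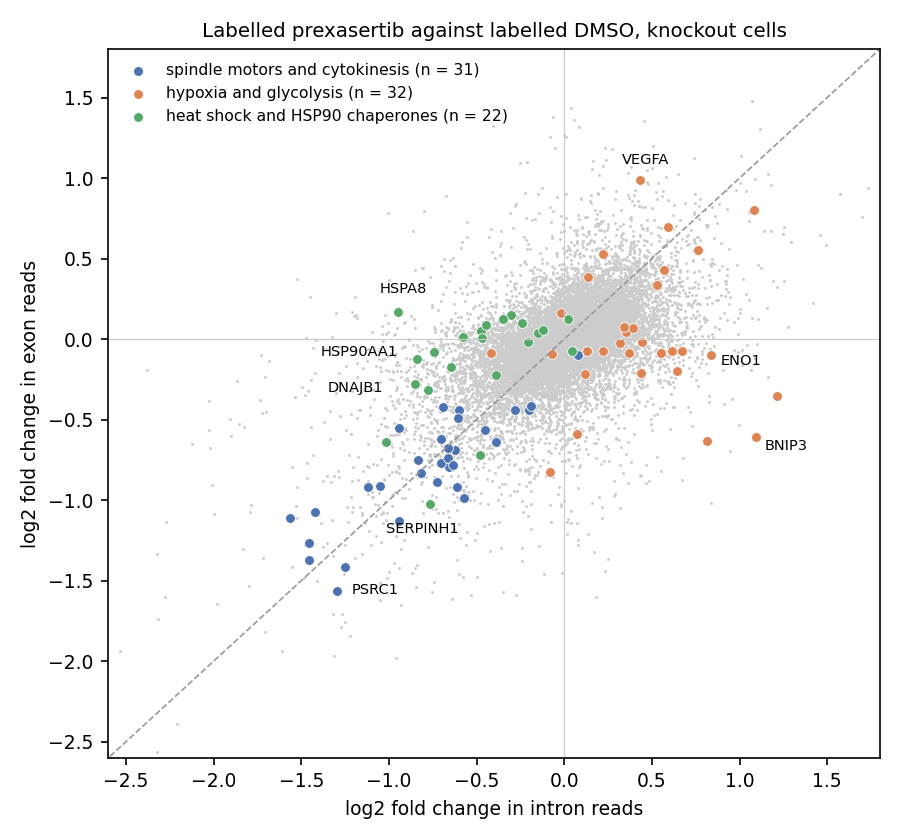
Log2 fold change in exon reads (vertical) against intron reads (horizontal), labelled prexasertib against labelled DMSO, for genes tested in both; grey points are all genes, coloured points are 3 lists and the dashed line marks equal changes. Spindle genes lie along the line at lower left, hypoxia genes mostly right of it with ENO1 and BNIP3 below 0 in exons, and heat shock genes such as HSPA8 left of it.

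Heat shock genes showed the reverse pattern. They encode chaperones switched on by HSF1 when proteins misfold. In intron reads 16 of 22 were lower and 0 higher, against 6.15% and 5.83% of all genes, with a median of -0.47. In exon reads 9 of 25 were lower and 0 higher, with a median of -0.07. Of the 16 lower in introns, 5 were also lower in exons and 11 were not called there. Exon changes lay above intron changes for 16 of the 22 and below for 0, against 7.17% and 4.96% of all genes. HSPA8 (hg19 chr11:122928197-122933938), the constitutive HSP70, had exon levels of 2435 ± 26.1 and 2732 ± 53.2 CPM (log2 fold change 0.17, adjusted p = 0.056, a call gained with DESeq2), and its intron level fell from 207, 203 and 218 to 107, 110 and 108 CPM. The intron groups were clearly apart and the difference between exon and intron changes was 1.13 (adjusted p = 2.72e-13). HSP90AA1, the inducible HSP90, fell by 0.84 in introns with an exon change of -0.12, and DNAJB1, an HSP70 cochaperone, fell by 0.85 in introns and 0.28 in exons. Counting only intron reads outside other genes gave -0.96 for HSPA8, -0.85 for HSP90AA1, 0.86 for ENO1 and 1.09 for BNIP3. The HSPA8 promoter is shown with TTCNNGAA, a pair of the units that HSF1 binds and the same letters on both strands, in capitals.
HSPA8, chr11:123062087-123062386, minus strand: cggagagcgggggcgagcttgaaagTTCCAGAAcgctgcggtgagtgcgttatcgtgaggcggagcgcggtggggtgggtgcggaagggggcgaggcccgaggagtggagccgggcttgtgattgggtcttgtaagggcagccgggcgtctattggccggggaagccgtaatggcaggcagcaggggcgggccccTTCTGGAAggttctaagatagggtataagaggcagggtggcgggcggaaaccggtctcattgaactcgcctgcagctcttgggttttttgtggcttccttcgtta
This window, also from RefSeq on GRCh38.p14, holds the letters 225 and 55 bases before the start. Of the 37 windows matched to the list (23 of 25 genes), 32.4% held them, against 7.7% of all windows.

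**Figure D5:**
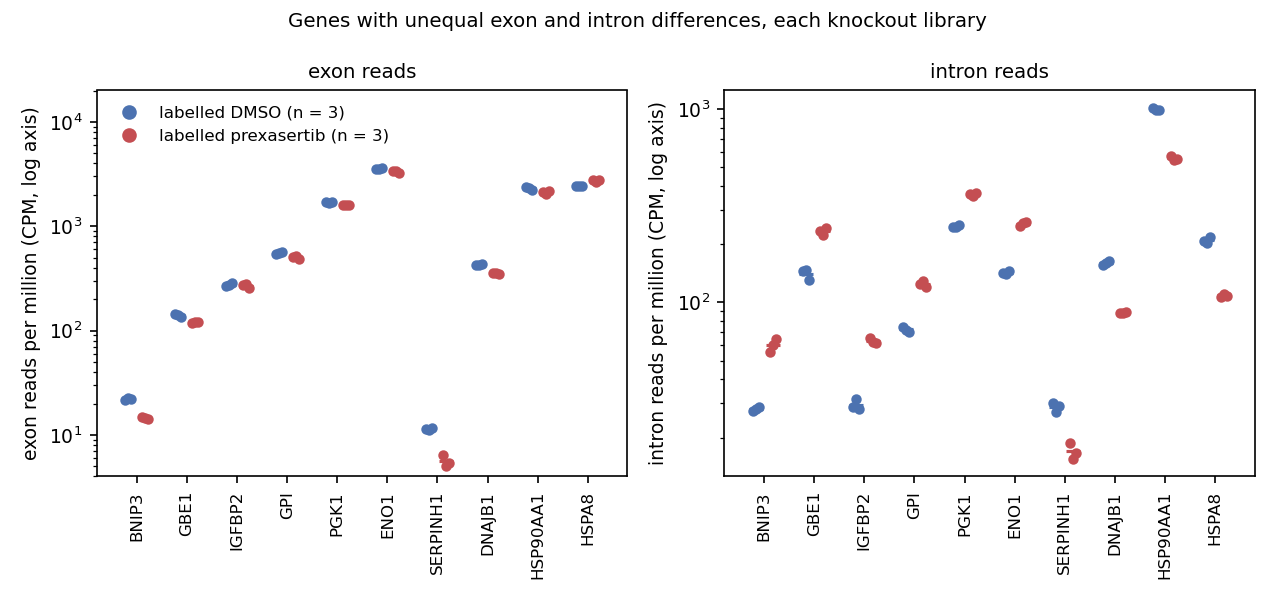
Exon (left) and intron (right) CPM on log axes for 10 genes in the 6 knockout libraries; points are libraries and bars are group means. The intron level is higher in all 3 prexasertib-labelled libraries for BNIP3, GBE1, IGFBP2, GPI, PGK1 and ENO1 and lower for SERPINH1, DNAJB1, HSP90AA1 and HSPA8.

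The chaperone genes HSPA6, SERPINH1 and HSPA1A changed in opposite directions in the 2 genotypes. HSPA6, an HSP70 made almost only under stress, fell in knockout cells from 83.3, 86.1 and 89.2 to 32.3, 32.4 and 29.5 CPM, whereas its parent change was 0.76, an interaction of 2.21. SERPINH1, the collagen chaperone, fell by 1.02 in knockout cells and had a parent change of 0.80. HSPA6 and SERPINH1 were among the genes named for their small interaction p, so their interactions are a description. HSPA1A, the inducible HSP70, fell by 0.67 from 162 ± 12.04 CPM and had a parent change of 0.71. HSPA1A and HSPA1B are near-identical copies, as are HSPA6 and HSPA7, so reads may be split between the members of each pair. Over the list, 20 of 25 genes were higher and 2 lower in parent exons, against 18.2% of all genes in each direction, and the intron interaction was above 0 for 17 of 22 and below for 0, against 4.02% and 5.82% of all genes. That intron interaction was not refitted without parent prexasertib-labelled replicate 1, whose intron share was high at 30.27%. Under the library names, HSPA6, SERPINH1 and HSPA1A rise with prexasertib in knockout cells and fall in parent cells.

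Of 23045 genes, 299 were called in knockout exons and in the interaction, with a larger change in knockout than in parent cells. The interaction alone was called above 0 for 7.32% of all genes and below for 9.53%. Of the 299, 157 were lower and 142 higher in the knockout cells, and 209 had parent changes of the opposite sign. The 209 include parent changes that were not called. Choosing genes with a called interaction and a smaller parent change favours opposite signs, so the count is a description. The next 5 genes were named for their small interaction p, so their differences between genotypes are a description. HES1, a repressor downstream of Notch, rose in knockout cells from 64.2, 66.3 and 61.9 to 89.1, 90.5 and 84.0 CPM and had a parent change of -0.36. SLC2A3 had a parent change of -0.42 against 0.53 in knockout cells. The parent changes of VEGFA and BHLHE40 were 0.26 and 0.45, below their knockout values. HIST1H1B, a linker histone, rose by 0.27 in knockout cells and had a parent change of -0.26. Over 54 replication-dependent histones, which are made in S phase, 10 were lower and 3, HIST1H1B, HIST1H1E and HIST1H2AK, were higher in knockout cells, while 53 were lower in parent cells. The 3 higher were near the 6.11% of all genes. Of all genes, 6.83% were lower in knockout cells and 18.2% in parent cells. HIST1H2AB, one of those lower in both, fell by 0.38 in knockout cells.

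Chaperones of the endoplasmic reticulum were higher for 11 of 22 genes and lower for ERN1 alone, with a median of 0.17; the count was 7 without DMSO-labelled replicate 2 or 3 or prexasertib-labelled replicate 1. XBP1, the factor of the unfolded protein response, rose from 121, 119 and 116 to 161, 162 and 171 CPM, and DNAJC3 rose by 0.47 on the log2 scale. Of 36 interferon-stimulated genes, 9 were lower and 3 higher, against 6.83% and 6.11% of all genes, so the share higher was near the background; IFIT1 fell from 5.51, 6.70 and 5.71 to 2.22, 2.16 and 2.54 CPM. In the BCL2 family MCL1, BIK and PMAIP1 were lower and BCL2 was higher among 15 tested. The share higher was near the 6.11% of all genes, and 6.83% of all genes were lower. MCL1 fell by 0.29 and BCL2 rose by 0.31. Of 33 T-lineage genes, 8 were higher and 4, LMO2, CD5, TAL1 and CD4, were lower. BCL11B, a factor of T-cell commitment, rose from 134 ± 0.888 to 194 ± 1.29 CPM, RAG1, a recombinase subunit, rose by 0.21, LMO2 fell by 0.57, and CD3D had a log2 fold change of 0.11 (adjusted p = 0.21). Among single genes outside the lists, SMTN, a cytoskeletal protein, fell from 23.2 ± 0.197 to 5.87 ± 0.679 CPM, and VSIG4 rose from 2.16 ± 0.194 to 4.50 ± 0.181 CPM.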

How the data were processed

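RNA from 12 libraries was analysed. The authors deposited 1 table of genes per library, with whole-number counts of reads in exons and introns and TPM values, placed on hg19. Per the submitters' processing notes the tools were STAR 2.5.4a, Picard 2.9.2, Trimmomatic 0.39 and Trim Galore 0.6.2, and no role is stated for any. The deposited counts were joined by gene name and place over 44183 features, and 36 copies on chromosome Y were left out. A gene a table does not list counted as 0. Strand use in counting is not given in the sources used here, so overlapping and antisense genes may share reads. Intron counts include reads of other genes' exons where genes overlap.

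Exon counts of all 12 libraries were fitted in edgeR 4.0.16 (R 4.3.3) with 4 group means, TMM factors, genes kept by a minimum count of 10 and the robust quasi-likelihood test, with Benjamini-Hochberg adjustment over all genes tested. Fitting both genotypes together shares 1 estimate of the spread. Introns were fitted likewise, and exon against intron counts with the library as a block. CPM are reads of a gene per 1000000 exon (or intron) reads after TMM scaling, and differences are on the log2 scale. Alternatives used DESeq2 1.42.0, limma 3.58.1 on log2(TPM + 1) of the deposited TPM, other factors and filters, and left-out libraries. The scripts were tested on simulated data.

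Members and gene lists were chosen with earlier results of these data known. Named genes were the 12 largest decreases and increases at a mean log2 CPM of at least 1 without overlap (small RNAs, pseudogenes and unnamed transcripts not described), key genes set for each list, the 3 smallest p of each list, the 6 of each sign with the smallest interaction p among genes that changed more in knockout cells, the 6 of each sign with the smallest p in exon against intron, and SLFN11. BCL3, RELB and KIF15, and genes named as exceptions of a list, were chosen after their values were seen. No library was a repeat of another: within a group, pairs differed beyond counting error (chi-square of 4.52 to 7.94 for each degree of freedom). Some genes are not reported here.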

Additional observations from a re-analysis of the deposited data

Results flagged for a closer look

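The change differed between genotypes by the interaction test for 16 of the genes named for their size of change or for a small interaction p. Over all genes, the exon interaction was called above 0 for 7.32% and below for 9.53%. PLK1, CDC20 and RND1, also named for their size of change, did not pass (adjusted p = 0.54, 0.097 and 0.43). HSPA6, SERPINH1, SLC2A3, HES1, HIST1H1B, VEGFA and BHLHE40 were named by that p, the last 2 by their size of change as well, so passing is part of how they were chosen. Values are the parent change minus the knockout change in exon reads on the log2 scale, and they take the opposite sign under the library names. Among genes lower in knockout cells, the interaction was -0.46 for PSRC1, -0.27 for PIF1, -0.50 for SMTN, -1.35 for FOS, -2.50 for NR4A3 and -1.90 for GEM, which all fell further in parent cells, and 0.31 for PPP1R15A, which fell less there. HSPA6 and SERPINH1 had 2.21 and 1.82, with opposite changes in the 2 genotypes. Among genes higher in knockout cells, the interaction was -1.24 for ADM, -0.72 for VEGFA, -0.85 for BHLHE40 and -0.53 for VSIG4, whose parent changes were smaller, and -0.95 for SLC2A3, -0.82 for HES1 and -0.54 for HIST1H1B, whose parent changes were below 0.

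In intron reads the interaction was -0.35 for ENO1 and -0.39 for GBE1, which rose less in parent cells, 1.00 for HSP90AA1 and 0.78 for HSPA8, whose parent intron changes were 0.16 and -0.17, and -1.04 for HIST1H2AC, a histone whose intron reads fell further in parent cells. HIST1H2AC had knockout exon levels that overlapped and an intron change of -1.05. None of these intron interactions was refitted without parent prexasertib-labelled replicate 1, which had the highest intron share.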

How the results depend on the processing

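Fitting only the 6 knockout libraries raised the exon counts to 2402 higher and 2476 lower and the intron counts to 2656 and 2539, and limma on the authors' TPM values lowered the exon counts to 665 and 891. Leaving out 1 library at a time gave 857 to 1134 higher and 1048 to 1292 lower in exons, 644 to 724 and 764 to 836 in introns, 728 to 872 exon-above-intron and 559 to 632 exon-below-intron genes, 954 to 2137 interactions above 0 and 1800 to 2905 below, and an intron share difference of 0.02 to 0.455 percentage points. The exon count of higher genes moved most without DMSO-labelled replicate 3 (857), prexasertib-labelled replicate 1 (922) or DMSO-labelled replicate 2 (926); the count of lower genes fell to 1048 without the first of these. Exon-above-intron genes numbered 728 without DMSO-labelled replicate 1 and 744 without prexasertib-labelled replicate 1, and interactions above 0 numbered 954 without parent DMSO-labelled replicate 1, 1023 and 1017 without knockout DMSO-labelled replicates 1 and 2 and 1069 without knockout prexasertib-labelled replicate 3. These fits hold fewer samples. Even so, interactions rose from 1686 above 0 and 2197 below to 2137 and 2905 without parent prexasertib-labelled replicate 1. That library had the highest intron share. Counting all reads of a gene, introns included, turned BNIP3 to 0.105, GBE1 to 0.0763 and the hypoxia list median to 0.0944, since these genes rose in introns. With the authors' TPM they were 0.0922, 0.0473 and 0.0766, and the cause was not tested. The other settings of the 4 comparisons, including DESeq2, upper-quartile factors, filters on low counts and reads outside other genes (the last chosen after seeing the data for introns, exon against intron and the interaction), left the counts within 1.5 times. No scaling moved the median of all genes by over 0.1. Each scaling sets the bulk of genes near no change, so this median cannot show a shift shared by most genes.

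The main fit did not pair same-numbered replicates. The deviations of libraries with the same number correlated at 0.002, 0.035 and -0.078, and those with unlike numbers at -0.179 to 0.161. With 3 libraries in each group these values cannot decide whether replicates were paired. With the replicate number as a block the exon counts were 1347 higher and 1568 lower. The intron counts were 1645 and 1560 with the block, against 1157 and 1220 without it.

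Depth limits genes of low level: the SE was 0.25 for RND1 and GEM against 0.05 for PLK1.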
